A study of Rattus norvegicus with 17 samples.

Results

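The genes described here serve the presentation of antigen on class II molecules of the major histocompatibility complex (MHC). They were RT1-Da and RT1-Ba, the alpha chains of the rat class II molecules RT1-D and RT1-B, Cd74, the invariant chain, and Ciita, the class II transactivator. The 4 members were taken by symbol from the probe annotation of the arrays, where each had 1 probe set, out of 14506 genes with a named probe set. They were picked as a pathway with the values of the control, 20 mg/kg and 30 mg/kg groups already in view. Their differences between those groups are therefore given as a description, with no test.

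Transcripts were measured on 17 Affymetrix arrays of total RNA from rats of 8 months on a mixed Sprague-Dawley white eye and Wistar-Kyoto background. All animals, controls included, carried a mutation of p27Kip1, an inhibitor of cyclin-dependent kinases, which the sample labels give as homozygous and the series design as heterozygous. The groups were control rats given PEG at 20 mg/kg (7 samples, 5 female and 2 male), rats given NVP-BEZ235 at 20 mg/kg (6 samples, 4 female and 2 male) and rats given NVP-BEZ235 at 30 mg/kg (4 samples, 3 female and 1 male). NVP-BEZ235 inhibits the kinases PI3K and mTOR, and the length of treatment was not given in the sources used here. The treatment protocol field of the samples names no treatment, while their treatment labels give the agents and doses used here to form the groups. The replicate numbers used here are those of the sample titles: 1 to 7 among controls, 1 to 4 among the 30 mg/kg samples, and 5 to 10 among those given 20 mg/kg. Dose therefore cannot be told apart from a division of the treated samples into numbers 1 to 4 and 5 to 10, and each dose is also set against the controls of its own numbers.

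The tissue was labelled as pituitary adenoma, while pheochromocytoma, which arises from chromaffin cells of the adrenal medulla, stands in the title of the series. All 8 measured chromaffin markers of 10 listed had mean values above the median of the arrays in every group, as had 8 or 9 of the 10 measured adrenal cortex markers of 12 listed. Of 7 pituitary hormone genes, at most 1 lay above it in any group. Values are the deposited log2 intensities, in which a difference of 1 is a doubling. Array medians lay between 4.95 and 5.11 and upper quartiles between 6.85 and 7.10, and the highest correlation between any pair of arrays was 0.993.

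Class II molecules are heterodimers of an alpha and a beta chain that display peptides from endocytosed proteins to CD4+ T cells. The chains assemble in the endoplasmic reticulum with the invariant chain, which blocks the groove and directs the complex to endosomes, where cathepsins degrade it and RT1-DM, the rat counterpart of HLA-DM, exchanges its remnant for antigenic peptide. Transcription of the chains and of Cd74 depends on CIITA, which does not bind DNA itself but joins the RFX, CREB and NF-Y proteins on the X and Y boxes of the promoters. Macrophages, dendritic cells and B cells express class II genes constitutively, and interferon gamma induces them, through CIITA, in many other cell types.

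Promoter windows of RefSeq (build GRCr8), from 250 bases before to 50 bases after the annotated start, were held for 9 of the 11 class II chains, invariant chain and transactivator looked for. The windows of 6 of them are printed because they carry, or lack, the letters of the X and Y boxes. Capitals mark the X box letters, searched in the simplified form GNNACNGAT, and the Y box letters, TGATTGG, on both strands. In the window of Cd74, which held neither, capitals mark CCAAT, the core of the inverted Y box, which the reverse complement of TGATTGG also contains. The letters and spacing were chosen after these windows had been read. The windows lay at chr20:4515165-4515464, plus strand for RT1-Da, chr20:4576807-4577106, plus strand for RT1-Ba, chr18:56526956-56527255, plus strand for Cd74, chr20:4604069-4604368, minus strand for RT1-Bb, chr20:4560113-4560412, minus strand for RT1-Db1 and chr20:4627474-4627773, minus strand for RT1-DOb, each written 5′ to 3′ on the strand of its gene.
RT1-Da: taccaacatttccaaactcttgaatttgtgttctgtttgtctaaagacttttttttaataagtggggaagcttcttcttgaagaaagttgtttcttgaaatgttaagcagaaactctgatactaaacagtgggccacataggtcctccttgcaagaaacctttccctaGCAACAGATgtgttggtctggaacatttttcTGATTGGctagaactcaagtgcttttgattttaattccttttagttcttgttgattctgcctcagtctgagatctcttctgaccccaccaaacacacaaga
RT1-Ba: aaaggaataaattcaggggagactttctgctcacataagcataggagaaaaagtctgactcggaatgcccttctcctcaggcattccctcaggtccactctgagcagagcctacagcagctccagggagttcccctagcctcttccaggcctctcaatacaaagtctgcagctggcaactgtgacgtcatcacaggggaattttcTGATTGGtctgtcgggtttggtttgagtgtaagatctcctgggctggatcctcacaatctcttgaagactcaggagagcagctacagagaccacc
Cd74: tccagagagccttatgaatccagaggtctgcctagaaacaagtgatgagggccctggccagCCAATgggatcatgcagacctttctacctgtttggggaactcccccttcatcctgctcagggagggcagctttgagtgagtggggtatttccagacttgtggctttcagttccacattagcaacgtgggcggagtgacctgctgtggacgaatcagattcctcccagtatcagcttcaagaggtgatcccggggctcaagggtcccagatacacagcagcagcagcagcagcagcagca
RT1-Bb: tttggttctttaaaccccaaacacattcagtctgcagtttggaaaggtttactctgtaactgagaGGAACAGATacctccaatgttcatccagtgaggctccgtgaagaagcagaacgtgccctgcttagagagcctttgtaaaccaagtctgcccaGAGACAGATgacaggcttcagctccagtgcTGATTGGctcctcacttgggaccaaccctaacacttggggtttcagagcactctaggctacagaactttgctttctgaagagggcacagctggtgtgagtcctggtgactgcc
RT1-Db1: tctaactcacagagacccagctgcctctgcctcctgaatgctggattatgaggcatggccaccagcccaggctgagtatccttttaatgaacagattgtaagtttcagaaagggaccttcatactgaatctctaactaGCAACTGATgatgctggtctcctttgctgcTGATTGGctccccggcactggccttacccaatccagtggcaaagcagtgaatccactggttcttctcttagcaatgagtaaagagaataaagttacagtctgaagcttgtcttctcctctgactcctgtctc
RT1-DOb: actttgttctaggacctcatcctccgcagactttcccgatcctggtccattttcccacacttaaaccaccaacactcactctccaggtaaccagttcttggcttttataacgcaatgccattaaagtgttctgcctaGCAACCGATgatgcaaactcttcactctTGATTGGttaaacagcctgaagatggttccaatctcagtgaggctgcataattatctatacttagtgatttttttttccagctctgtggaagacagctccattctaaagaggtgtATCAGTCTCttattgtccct

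The X and Y letters stood in the same orientation in 5 of the 9 windows. In RT1-Da the X letters began 82 bases and the Y letters 51 bases before the start, with 22 bases between them. The gap was 21 bases in RT1-Bb and RT1-Db1, the beta chains of RT1-B and RT1-D, 22 bases in RT1-DMa and 19 bases in RT1-DOb. RT1-Ba held the Y letters 45 bases before its start, and RT1-DOa and RT1-Ha held them 109 and 114 bases before theirs. The X form searched is narrow, and a window without its letters may still hold an X box of other letters. In RT1-Ba, gcaactgtg stood upstream of the Y letters and was not matched by that form. The window of Cd74 held CCAAT 189 bases before its start, but RefSeq's record of that gene begins 135 bases upstream of the start used for the window. RT1-Bb held a further match to the X letters 185 bases before its start, and RT1-DOb held another on the opposite strand, 30 bases after it.

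Among all 33469 promoter windows of this length, 7.83% held the X letters, 7.06% the Y letters and 37.5% CCAAT. X and Y letters in the same orientation, 10 to 40 bases apart, stood in 15 windows, or 0.0448%. Of these, 11 belonged to genes tested on the arrays, 5 of them the class II genes named above. The other 6 were Cdv3, Eif2ak3, Glt6d1, H3f3b, Hsd17b7 and Mylip. Of these 6 genes, 0 passed the threshold at both doses together or at 30 mg/kg in limma's test. Their median difference at 30 mg/kg against control was 0.21. Over all genes 0.965% were called lower and 0.517% higher for both doses, and 4.89% lower and 3.66% higher at 30 mg/kg. With such shares nothing is read from the count over 6 genes. The letters and spacing were chosen after the class II windows had been read, so nothing is read from the 5 class II genes among the 11. A match of letters is a description and does not show that a factor binds.

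**Figure D1:**
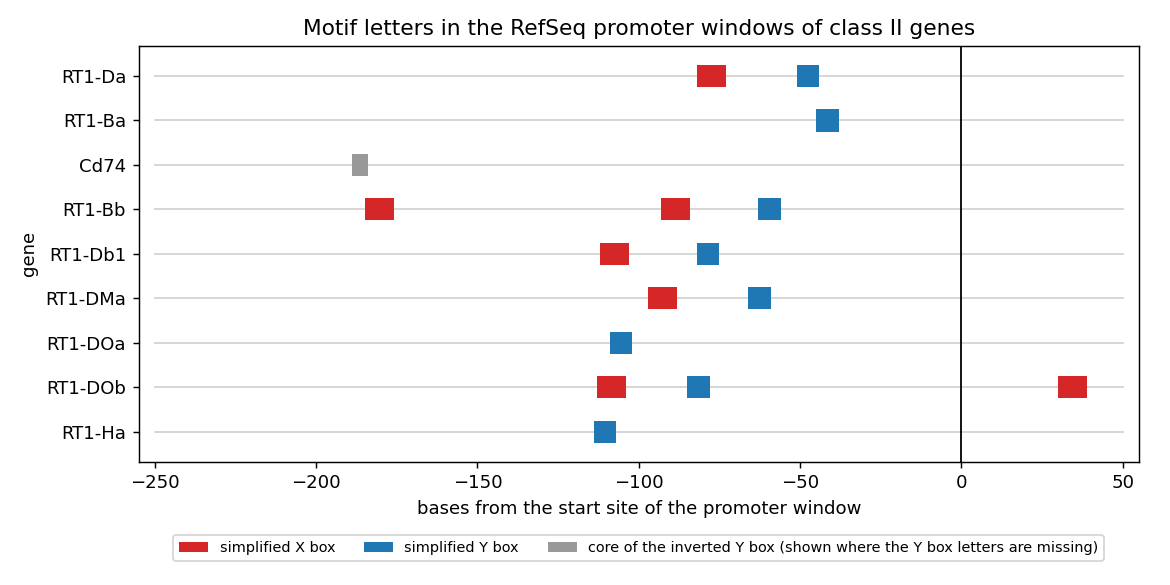
Position of the motif letters in the promoter windows of 9 class II genes, in bases from the annotated start (vertical line), which each horizontal line spans from 250 bases before to 50 bases after. Red boxes are the simplified X box, blue boxes the simplified Y box and the grey box the core of the inverted Y box in Cd74. The X and Y letters lie close together in RT1-Da, RT1-Bb, RT1-Db1, RT1-DMa and RT1-DOb, with gaps of 19 to 22 bases. Other forms of the X box were not searched.

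RT1-Da, the alpha chain of RT1-D, lay on the control arrays between 9.22 and 10.19, with a median of 9.82. On the 20 mg/kg arrays it lay between 7.35 and 9.45, with a median of 9.30. The 4 arrays of 30 mg/kg gave 7.62, 6.64, 6.56 and 6.79 for replicates 1 to 4. All 30 mg/kg values were thus below every control, as held for 2.01% of all 14506 genes, while 4 of the 6 values at 20 mg/kg lay above the lowest control, replicate 4. Only replicate 10 at 20 mg/kg, at 7.35, reached into the range of the higher dose. Group means were 9.79 ± 0.33 (SD, n = 7) for control, 8.90 ± 0.82 (SD, n = 6) at 20 mg/kg and 6.90 ± 0.49 (SD, n = 4) at 30 mg/kg. Adjusted for sex, RT1-Da differed from control by -0.87 ± 0.29 (SE) log2 units at 20 mg/kg, with control 1.83-fold higher, and by -2.90 ± 0.32 at 30 mg/kg, with control 7.48-fold higher.

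RT1-Ba, the alpha chain of RT1-B, lay between 7.99 and 8.66 on the control arrays, with a median of 8.50. The 20 mg/kg arrays gave values between 5.94 and 7.83, with a median of 7.42. The 30 mg/kg replicates 1 to 4 gave 6.59, 6.30, 5.70 and 6.20. All 10 treated values were below the lowest control, so that treated and control samples did not overlap for this gene, as held in this direction for 0.165% of all genes. The doses overlapped through replicate 10 at 20 mg/kg, which at 5.94 was lower than 3 of the 4 samples at 30 mg/kg. The means were 8.37 ± 0.25 (SD, n = 7), 7.24 ± 0.68 (SD, n = 6) and 6.20 ± 0.37 (SD, n = 4). The sex-adjusted difference from control was -1.12 ± 0.23 (SE) at 20 mg/kg, a 2.17-fold lower value, and -2.19 ± 0.25 at 30 mg/kg, a 4.57-fold lower value.

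Cd74, the invariant chain, lay between 10.77 and 11.51 on the control arrays, with a median of 11.10. On the 20 mg/kg arrays it lay between 8.96 and 10.63, with a median of 10.38. The 30 mg/kg replicates gave 10.22, 9.01, 8.10 and 8.62. As for RT1-Ba, all 10 treated values were below the lowest control. The doses overlapped more widely than for the chains, since replicate 1 at 30 mg/kg was above replicates 9 and 10 at 20 mg/kg. Means were 11.16 ± 0.25 (SD, n = 7), 10.12 ± 0.64 (SD, n = 6) and 8.99 ± 0.90 (SD, n = 4). Cd74 differed from control by -1.02 ± 0.28 (SE) at 20 mg/kg and by -2.19 ± 0.31 at 30 mg/kg, where control was 4.58-fold higher.

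Ciita, the coactivator on which the transcription of the other members depends, did not share their pattern of values. It lay between 4.16 and 4.57 on the control arrays, with a median of 4.33, and between 4.06 and 4.33 at 20 mg/kg, with a median of 4.27. The 30 mg/kg replicates gave 4.59, 4.59, 4.37 and 4.20. The 3 groups overlapped, and 1 of 10 treated values was below the lowest control. Means were 4.35 ± 0.14 (SD, n = 7), 4.24 ± 0.10 (SD, n = 6) and 4.44 ± 0.19 (SD, n = 4). The sex-adjusted difference was -0.10 ± 0.09 (SE) at 20 mg/kg and 0.09 ± 0.10 at 30 mg/kg, with a 95% confidence interval at 30 mg/kg of -0.12 to 0.30. Every Ciita value lay below the median of its array, and with no detection calls used here it was not known how far the probe set stood above background.

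**Figure D2:**
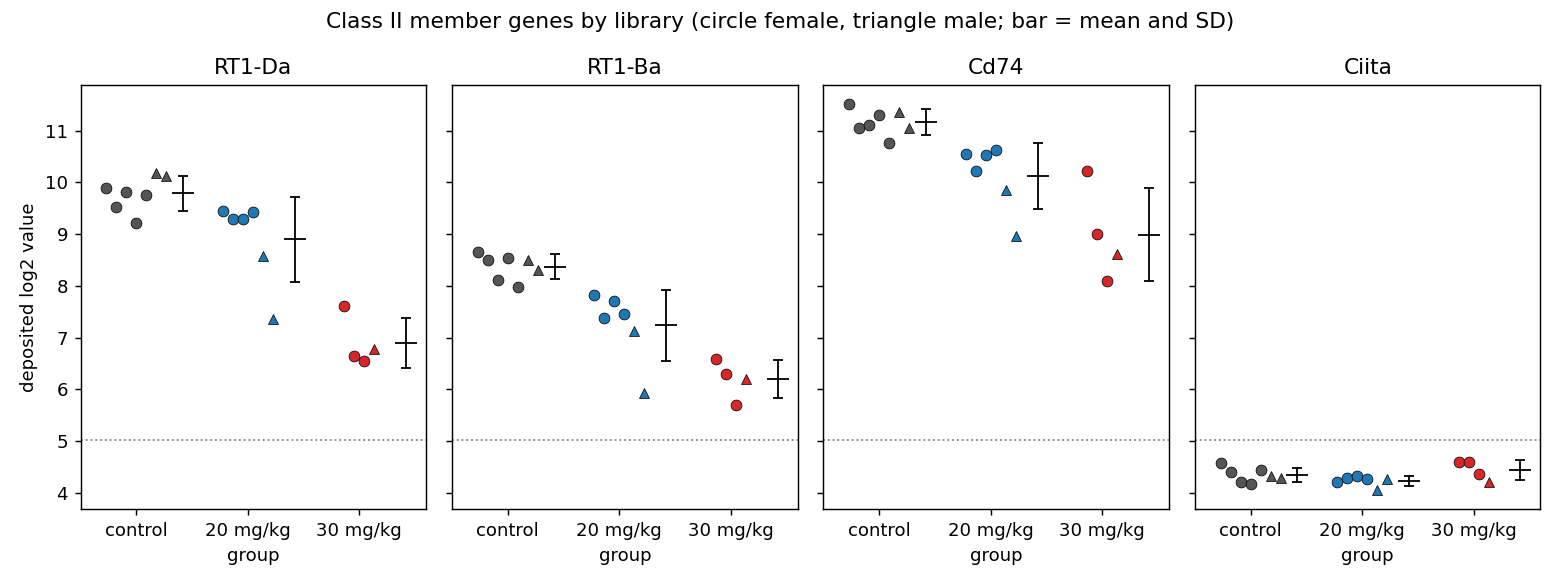
Deposited log2 value (vertical axis) of the 4 members on each of 17 arrays by group, with circles for female and triangles for male samples, the mean and SD beside each group, and a dotted line at the median over all arrays, 5.03. RT1-Da, RT1-Ba and Cd74 step down from control to 20 mg/kg to 30 mg/kg, with replicate 10 at 20 mg/kg lowest of its group in all 3, and Ciita stays between 4.06 and 4.59.

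Within numbers 1 to 4, the 4 samples at 30 mg/kg differed from the 4 controls by -2.72 for RT1-Da, -2.26 for RT1-Ba, -2.26 for Cd74 and 0.10 for Ciita, as simple differences of means. Within numbers 5 to 10, the 6 samples at 20 mg/kg differed from the 3 controls by -1.12, -1.03, -0.94 and -0.12 in the same order. In both sets every treated value of RT1-Da, RT1-Ba and Cd74 lay below every control of that set, as did 0 of 4 and 5 of 6 treated values of Ciita. Of all genes, 3.52% were separated in this way within numbers 1 to 4 and 2.9% within numbers 5 to 10. The members were chosen with these groups in view, so nothing is read from this tally. The controls themselves differed between the sets, numbers 5 to 7 minus 1 to 4, by 0.41 for RT1-Da, -0.19 for RT1-Ba and -0.18 for Cd74.

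The size of the difference in RT1-Da at 20 mg/kg turned on which samples were used. It was -0.87 over all samples, -0.27 in female samples alone, -0.58 without replicate 10 and -1.39 within numbers 5 to 10 with sex in the fit. For Cd74 the female samples alone gave -0.66 in place of -1.02. At 30 mg/kg the female samples alone gave -2.71 for RT1-Da, -2.17 for RT1-Ba and -2.04 for Cd74.

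Set against 20 mg/kg, the samples at 30 mg/kg differed by -2.03 ± 0.33 (SE) in RT1-Da, -1.07 ± 0.26 in RT1-Ba, -1.18 ± 0.32 in Cd74 and 0.19 ± 0.10 in Ciita. Of the 4 members, RT1-Da had the largest of these differences. With the set of numbers as a term, which takes the difference between doses from each set's own controls, the value for RT1-Da was -1.23 and those for RT1-Ba and Cd74 were -0.99 and -1.0. For both doses together against control, the differences were -1.69 ± 0.45 in RT1-Da, -1.55 ± 0.28 in RT1-Ba, -1.49 ± 0.32 in Cd74 and -0.03 ± 0.08 in Ciita.

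As a description, 2 of 4 members were lower with an adjusted p under 0.05 for both doses together, where 0.965% of the 14506 genes tested were called lower and 0.517% higher (limma, Benjamini-Hochberg over all genes). The lower dose had 1 member called lower against 0.524% of all genes, and 0.655% were called higher. At 30 mg/kg, 3 members were called lower against 4.89%, and 3.66% were called higher. Between the doses, 3 members were called lower at 30 mg/kg, where 12.1% of genes were called in either direction, 1183 of them lower and 569 higher. Since the members were chosen on these contrasts, nothing is read from these counts.

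**Figure D3:**
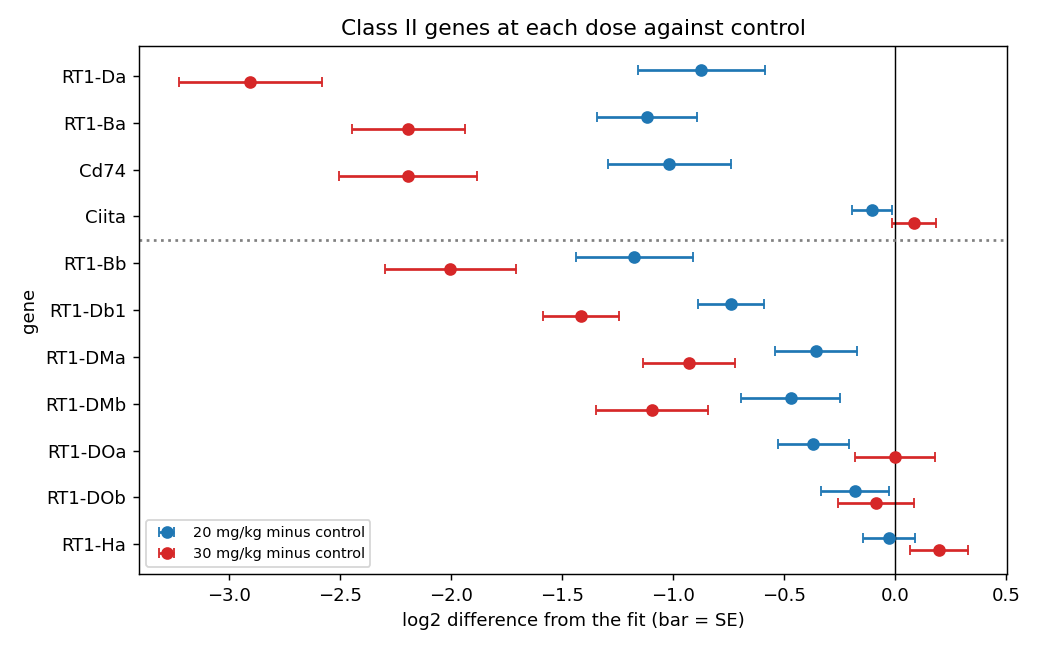
Difference from control on the log2 scale (horizontal axis, bars are SE from the fit) at 20 mg/kg (blue) and 30 mg/kg (red) for the 4 members, above the dotted line, and the 7 other measured class II chains below it. RT1-Bb and RT1-Db1 lie beside the member chains, at -2.0 and -1.41 at 30 mg/kg, while RT1-DOa, RT1-DOb, RT1-Ha and Ciita lie between -0.08 and 0.20 at that dose.

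Sex played no part in the choice of the members and could be tested. In the female samples both doses together differed from control by -1.32 in RT1-Da, -1.37 in RT1-Ba and -1.25 in Cd74, and in the male samples by -2.58, -1.99 and -2.06. The male group held 2 controls and 3 treated samples, and 1 of these was the low replicate 10. The difference between the sexes in the effect of treatment was -1.27 ± 0.96 (SE) for RT1-Da, -0.62 ± 0.61 for RT1-Ba, -0.81 ± 0.70 for Cd74 and -0.16 ± 0.19 for Ciita. The adjusted p-values of this product term ran from 0.78 to 0.84 for the 4 members (limma). Of all genes, 0.00689% passed, a single gene, and 951 had an unadjusted p under 0.05. The interval for RT1-Da, from -3.30 to 0.77, was wide enough to hold both no difference and one as large as the effect itself.

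Fitted over control and treated samples together, male samples differed from female samples by -0.24 ± 0.48 (SE) in RT1-Da and -0.32 ± 0.30 in RT1-Ba. The values were -0.42 ± 0.35 in Cd74 and -0.14 ± 0.09 in Ciita. None of the 4 passed in limma's test, with adjusted p between 0.46 and 0.84, and 0 had an unadjusted p under 0.05. Over all genes 0.241% passed in either direction, and 2221 had an unadjusted p under 0.05. Among controls the male mean was the higher in RT1-Da (10.15 against 9.64), RT1-Ba (8.41 against 8.36) and Cd74 (11.20 against 11.15). Among treated samples the male mean was the lower, at 7.57 against 8.33, 6.42 against 6.99 and 9.14 against 9.89 in the same order.

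The partner chains of the members fell at both doses. RT1-Bb, the beta chain that pairs with RT1-Ba, lay between 7.77 and 8.65 on the control arrays and between 5.60 and 7.64 at 20 mg/kg, and gave 6.95, 6.17, 6.02 and 5.91 at 30 mg/kg. Its treated and control samples did not overlap, as held in this direction for 0.165% of all genes. RT1-Bb fell at 20 mg/kg (-1.17 ± 0.26, SE, adjusted p = 0.040, limma) and at 30 mg/kg (-2.0 ± 0.30, adjusted p = 0.00082). RT1-Db1, a beta chain of RT1-D, lay between 7.17 and 7.62 in control and between 5.74 and 7.10 at 20 mg/kg, and gave 6.21, 6.16, 5.88 and 5.77 at 30 mg/kg. Here too all treated samples were below all controls. RT1-Db1 fell at 20 mg/kg (-0.74 ± 0.15, adjusted p = 0.025) and at 30 mg/kg (-1.41 ± 0.17, adjusted p = 0.00021). RT1-Db2, a closely related chain, had no value here, and whether the probe set of RT1-Db1 also detects it was not tested.

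For both doses together, RT1-Bb fell (-1.51 ± 0.27, adjusted p = 0.014, limma), as did RT1-Db1 (-1.01 ± 0.18, adjusted p = 0.011). Within numbers 1 to 4 alone the call of RT1-Bb was lost (-1.66, adjusted p = 0.064), and without control replicate 7 its adjusted p for both doses was 0.052. The calls at 20 mg/kg were the least stable. That of RT1-Bb was lost without any of replicates 6 to 10 at 20 mg/kg or control replicates 1, 6 or 7, with an adjusted p of 0.051 to 0.090, and that of RT1-Db1 without replicates 6, 7 or 8 or control replicate 7, at 0.058 to 0.077. In the female samples alone neither was called for both doses, with adjusted p of 0.17 for RT1-Bb and 0.15 for RT1-Db1.

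RT1-DMa and RT1-DMb, the chains of the peptide exchanger RT1-DM, fell at 30 mg/kg and did not pass at 20 mg/kg. RT1-DMa lay between 7.73 and 8.58 in control and between 7.29 and 7.96 at 20 mg/kg, and gave 7.69, 6.49, 7.81 and 6.67 at 30 mg/kg. Replicates 1 and 3 at 30 mg/kg lay inside or near the control range and replicates 2 and 4 well below it. The fall at 30 mg/kg was 0.93 ± 0.21 (SE, adjusted p = 0.011, limma). RT1-DMb lay between 6.16 and 7.36 in control and between 5.19 and 6.74 at 20 mg/kg, and gave 6.12, 5.77, 6.12 and 4.74 at 30 mg/kg, where it fell (-1.1 ± 0.25, adjusted p = 0.013). The differences at 20 mg/kg were -0.35 (adjusted p = 0.33) for RT1-DMa and -0.47 (adjusted p = 0.29) for RT1-DMb. Both calls at 30 mg/kg were lost without replicate 4 at that dose, at adjusted p of 0.065 and 0.090, and within numbers 1 to 4, at 0.46 and 0.41.

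The remaining chains gave no call. RT1-DOa and RT1-DOb encode RT1-DO, which restrains RT1-DM. RT1-DOa differed by -0.37 at 20 mg/kg (adjusted p = 0.25, limma) and by -0.00 at 30 mg/kg (adjusted p = 0.997), and RT1-DOb by -0.18 and -0.08 (adjusted p = 0.58 and 0.83). RT1-Ha, an alpha chain gene of the same region, differed by -0.03 and 0.20 (adjusted p = 0.92 and 0.39). RT1-Ha lay between 3.35 and 4.11, below the median of every array. RT1-DOb, whose window holds the X and Y letters, had group means of 4.69, 4.50 and 4.61 for control, 20 mg/kg and 30 mg/kg. These lay below the median over all arrays of 5.03, and how far the probe set stood above background was not tested.

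Over the 7 measured of 8 other class II chains, 2 were called lower for both doses, 2 at 20 mg/kg, 4 at 30 mg/kg and 1, RT1-Db1, at 30 against 20 mg/kg (-0.68, adjusted p = 0.021, limma). Their median difference was -0.58, -0.37, -0.93 and -0.57 in these comparisons, beside medians over all genes of -0.00, -0.01, 0.01 and 0.03. Called lower over all genes were 0.965% for both doses, 0.524% at 20 mg/kg and 4.89% at 30 mg/kg. Between the doses 1183 of 14506 genes were called lower. The call of RT1-Db1 between the doses was lost with the set of numbers as a term (-0.23, adjusted p = 0.90), and without replicate 6 at 20 mg/kg or replicates 3 or 4 at 30 mg/kg (adjusted p of 0.052 to 0.081).

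Endosomal processing genes split in direction at 30 mg/kg. Ctsh, which encodes the aminopeptidase cathepsin H, fell (-1.26 ± 0.24, SE, adjusted p = 0.0049, limma). Ctss, whose product cathepsin S cleaves the invariant chain in antigen-presenting cells, fell (-0.63 ± 0.15, adjusted p = 0.016), a call lost without replicate 2 or replicate 4 at 30 mg/kg. Ctsl, which encodes cathepsin L, rose by 0.68 ± 0.15 (adjusted p = 0.012). The other 6 of the 9 measured genes, of 10 listed, did not pass at 30 mg/kg, and 0 of 9 passed at 20 mg/kg or for both doses, where 2 had an unadjusted p under 0.05 in each. Between the doses only Ctss passed of the 9 (-0.63, adjusted p = 0.017), and without the same single samples it did not. The median over the list at 30 mg/kg was -0.07, against 0.01 over all genes. Of all genes, 4.89% were called lower at that dose and 3.66% higher.

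Of 13 genes for the transcription of class II genes, all measured, 0 passed in any of the 4 dose comparisons by limma, with 4, 2, 3 and 0 at an unadjusted p under 0.05 for both doses, 20 mg/kg, 30 mg/kg and 30 against 20 mg/kg. The subunits of RFX, named for their role at the X box, differed at 30 mg/kg by -0.05 ± 0.17 (SE) in Rfx5, 0.27 ± 0.28 in Rfxap and 0.01 ± 0.17 in Rfxank. At the ends of the list's range at 30 mg/kg stood the acetyltransferases Kat2b, at -0.45 (adjusted p = 0.11), and Crebbp, at 0.45 (adjusted p = 0.069). The shares called over all genes at 30 mg/kg, 4.89% lower and 3.66% higher, correspond to few calls in a list of this length.

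Genes of interferon gamma signalling gave values for 15 of 18 listed. Of these, 5 fell for both doses together, 4 at 20 mg/kg and 5 at 30 mg/kg, where 1 rose. For both doses the guanylate-binding protein genes Gbp5 (-1.43 ± 0.12, SE, adjusted p = 6.6e-06, limma) and Gbp2 (-1.14 ± 0.20, adjusted p = 0.010) fell. So did the chemokine gene Cxcl10 (-2.1 ± 0.37, adjusted p = 0.010) and Igtp, which encodes an interferon-inducible GTPase (-0.69 ± 0.11, adjusted p = 0.0064). Ifngr2, the signalling subunit of the receptor, rose by 0.65 ± 0.11 at 30 mg/kg (adjusted p = 0.0020). Ifng itself lay below the array medians in every group mean and differed by -0.17 (adjusted p = 0.53) for both doses. The list's median difference was -0.17 for both doses and -0.27 at 30 mg/kg. Beside these counts, 0.965% of all genes were called lower for both doses, 0.524% at 20 mg/kg and 4.89% at 30 mg/kg. At 30 mg/kg 3.66% were called higher.

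The class I pathway, which presents peptides made by proteasomes in the cytosol, gave 0 calls among 15 measured genes of 19 for both doses and 0 at 20 mg/kg (4 and 1 at an unadjusted p under 0.05, limma). At 30 mg/kg 4 fell. They were the immunoproteasome subunits Psmb8 (-1.41 ± 0.24, SE, adjusted p = 0.0020), Psmb9 (-1.76 ± 0.25, adjusted p = 0.00060) and Psmb10 (-1.35 ± 0.26, adjusted p = 0.0045), and the proteasome activator Psme1 (-0.57 ± 0.11, adjusted p = 0.0050). The median of the list at 30 mg/kg was -0.36, and 4.89% of all genes were called lower at that dose. Of 8 measured genes of 10 for costimulation and receptors of class II, Cd4 alone passed against control, at 30 mg/kg (-1.13 ± 0.21, adjusted p = 0.0041). Which cells its RNA came from was not tested.

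Some markers of leukocytes fell in the treated groups as well. For comparison, 0.965% of all genes were called lower for both doses, 0.524% at 20 mg/kg and 4.89% at 30 mg/kg. In these bulk samples fewer cells of a type and less RNA per cell cannot be told apart. Among 8 pan-leukocyte markers, Ptprc, the leukocyte common antigen CD45, fell for both doses (-1.25 ± 0.16, SE, adjusted p = 0.0010, limma), with -1.15 at 20 mg/kg and -1.41 at 30 mg/kg, and so did the actin regulator Coro1a (-0.89 ± 0.13, adjusted p = 0.0038). The mean level of this list lay between 5.88 and 6.34 on the control arrays, between 5.46 and 5.87 at 20 mg/kg and between 5.52 and 5.89 at 30 mg/kg. The other 6 did not pass in any comparison of dose with control.

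Of 17 macrophage markers, 1 fell for both doses, the fractalkine receptor Cx3cr1 (-0.84 ± 0.17, adjusted p = 0.022, limma), and 5 fell at 30 mg/kg. The first 4 of these by p were Aif1, the gene of the calcium-binding protein IBA1, at -1.68 ± 0.33 (adjusted p = 0.0052), Cx3cr1 at -0.74 ± 0.21 (adjusted p = 0.038), the adaptor Tyrobp at -0.82 ± 0.24 (adjusted p = 0.039) and the growth factor receptor Csf1r at -0.66 ± 0.19 (adjusted p = 0.041). The calls of Cx3cr1, Tyrobp and Csf1r at 30 mg/kg were lost when any of 9, 8 and 12 single samples was left out (adjusted p of 0.050 to 0.22), and that of Cx3cr1 for both doses without control replicate 6 or 7. Of all 17 markers, 13 had a negative difference at 30 mg/kg, with a median of -0.37, and 11 did for both doses. At 30 mg/kg 2 were higher at an unadjusted p under 0.05 (limma), and 0 were called higher. The list's mean level lay between 6.79 and 7.19 in control, between 6.66 and 7.11 at 20 mg/kg and between 6.48 and 7.24 at 30 mg/kg. The highest of these 17 arrays was replicate 3 at 30 mg/kg, which had the lowest RT1-Da, RT1-Ba and Cd74 of its group. That rests on 1 array. With the mean of each group subtracted, Pearson r with the mean of the 4 members varied widely between the 17 markers. It ran from -0.47 for Adgre1 to 0.60 for Mrc1.

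Of 10 measured dendritic cell markers of 12, the lectin receptor gene Clec4a1 alone fell (-1.14 ± 0.22 for both doses, adjusted p = 0.020, limma), a call lost without control replicate 6 or 7, and the list's mean level lay between 4.97 and 5.37 in control, 4.81 and 5.07 at 20 mg/kg and 4.90 and 5.26 at 30 mg/kg. Of 11 measured T cell markers of 12, 2 fell for both doses, Cd3d (-0.99 ± 0.24, adjusted p = 0.045) and Cd2 (-0.49 ± 0.08, adjusted p = 0.010). The call of Cd3d was lost when any of 14 single samples was left out, namely all at 20 mg/kg, replicates 1 to 3 at 30 mg/kg and control replicates 3 to 7 (adjusted p of 0.054 to 0.12). The T cell list's level lay between 4.25 and 4.57 in control, 3.95 and 4.11 at 20 mg/kg and 3.95 and 4.12 at 30 mg/kg. Of 8 measured B cell markers of 12, 0 passed for both doses or at either dose (1, 2 and 1 at an unadjusted p under 0.05), and the level lay between 4.26 and 4.71, 4.14 and 4.34, and 4.10 and 4.40. In every group 0 of the T cell and 0 of the B cell markers had a mean above the array median.

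Among 9 measured endothelial markers of 10, a cell type in which interferon gamma can induce class II, 3 rose at 30 mg/kg: Flt1 by 1.09 ± 0.17 (SE, adjusted p = 0.0010, limma), Cdh5 by 0.54 ± 0.12 (adjusted p = 0.012) and Emcn by 0.60 ± 0.17 (adjusted p = 0.034), the last a call lost without replicates 2 or 4 at 30 mg/kg or control replicates 4, 5 or 6. Their level lay between 6.85 and 7.43 in control, 7.05 and 7.52 at 20 mg/kg and 7.52 and 7.83 at 30 mg/kg. Of all genes, 3.66% were called higher at 30 mg/kg. Of the 8 measured chromaffin markers only Ddc passed at 30 mg/kg, where it fell (-1.95 ± 0.31, adjusted p = 0.0013, limma). That list had 4 negative differences at this dose and a median of -0.11. Of the 10 measured adrenal cortex markers Mc2r fell at 20 mg/kg (-1.47 ± 0.26, adjusted p = 0.017, lost without replicate 8 of that dose). Mrap rose at 30 mg/kg (1.38 ± 0.23, adjusted p = 0.0019). The cortex list had 7 negative differences at 20 mg/kg (median -0.39) and 5 at 30 mg/kg (median -0.02). The part of any of these cell types in the values of RT1-Da, RT1-Ba and Cd74 was not tested.

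Within numbers 1 to 4 alone, where the sex term takes up the male sample and leaves 4 controls against 3 treated, the calls of Gbp5, Psmb9 and Ptprc held and those of the other genes named from these lists against control did not, Mc2r aside, whose call at 20 mg/kg was lost within numbers 5 to 10. In the female samples alone the calls of Gbp5, Cxcl10, Ptprc, Ctsl, Psmb8, Psmb9, Ifngr2, Aif1, Flt1, Ddc and Mrap held, and the others did not. With the set of numbers as a term, the calls at single doses of Ctss, Cx3cr1, Tyrobp, Csf1r, Cdh5, Emcn and Mc2r, and of RT1-DMa and RT1-DMb, were lost.

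**Figure D4:**
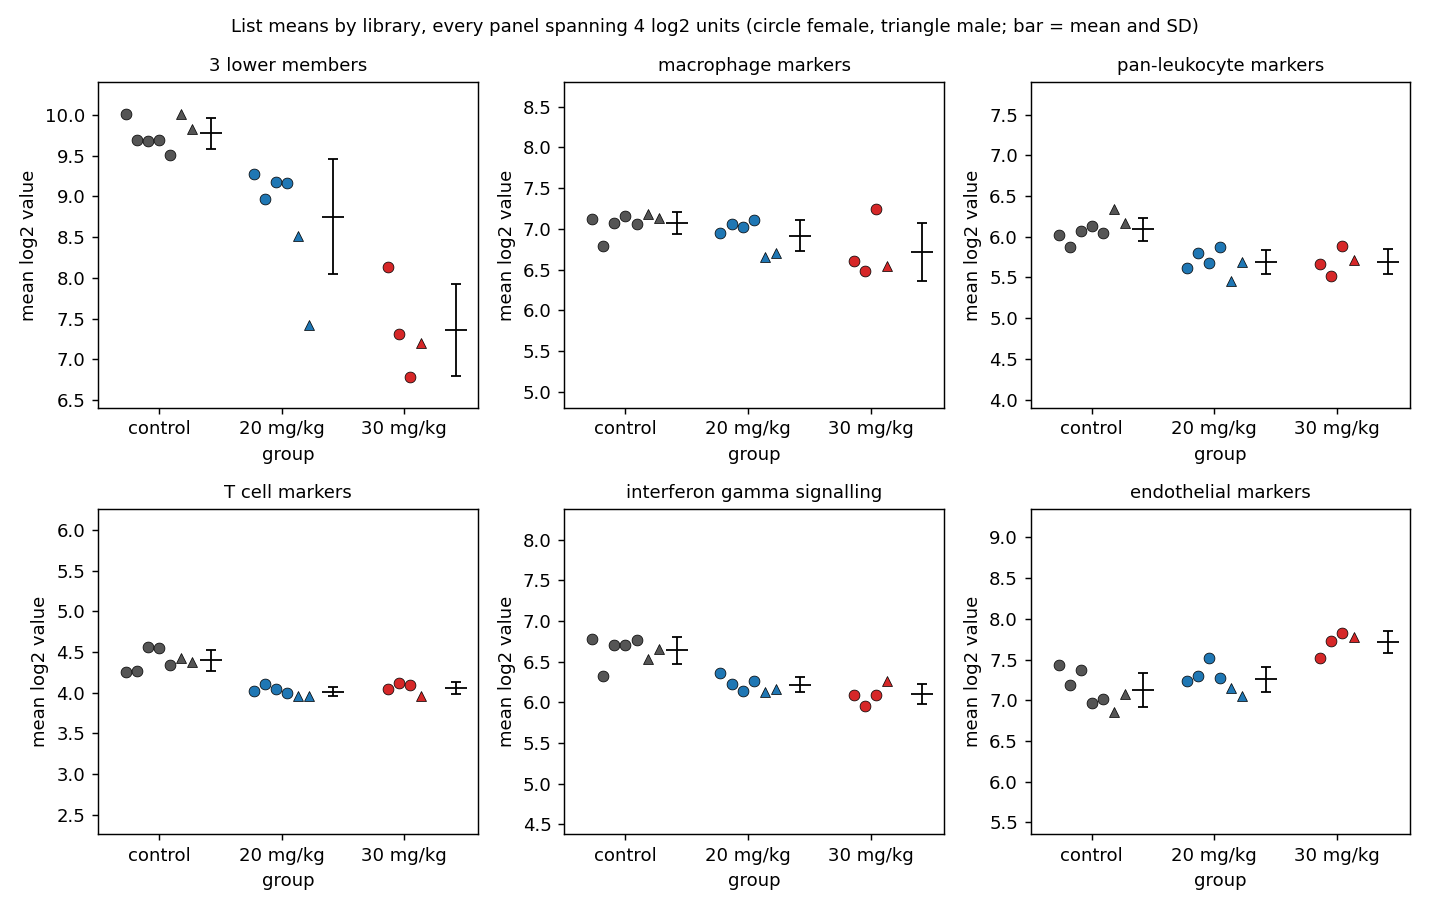
Mean log2 value per array (vertical axis, 4 log2 units in every panel) of RT1-Da, RT1-Ba and Cd74 together (top left) and of 5 marker or pathway lists, by group, with circles for female and triangles for male samples and the mean and SD beside each group. The pan-leukocyte, T cell and interferon gamma lists are lower in both treated groups with little step between the doses, the macrophage list overlaps between all groups, and the endothelial list is highest at 30 mg/kg, at 7.52 to 7.83.

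The genes whose residual variation was most like that of the members were found over the 17 samples, after the mean of each group had been subtracted from the gene and from the mean of the 4 members. The highest Pearson r, given as a description, was that of RT1-Bb, at 0.91, followed by Ehd3 and Ccl11 at 0.86, Acat1 at 0.85, and Aldh2, Nipsnap1, Strada, Dync1i1, Ttc38 and RT1-Db1 at 0.84. The samples share their scaling, and sex was not subtracted. The members' mean had an SD of 0.16 in control, 0.54 at 20 mg/kg and 0.45 at 30 mg/kg. Treated samples therefore weighed more than controls in this r. Among the 7 control samples alone, r with the members' mean ranged over these 10 genes from -0.72 for Ccl11 to 0.90 for Ehd3, with 0.85 for Strada, 0.83 for Nipsnap1, 0.41 for RT1-Bb and 0.21 for RT1-Db1. Ccl11, the eosinophil chemokine eotaxin, fell at 30 mg/kg (-4.76 ± 0.65, SE, adjusted p = 0.00049, limma), while Ehd3 differed there by -0.00 (adjusted p = 0.996). RT1-DMb and RT1-DMa had r of 0.66 and 0.41.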

How the data were processed

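Per the labels' protocols, RNA was treated with DNase on extraction, amplified over the whole transcriptome and biotin-labelled. The deposited values were log2 intensities from RMA, and the submitters' processing notes name Affymetrix Expression Console 1.3.0.187. RMA normalizes arrays to a common distribution, so values are relative to each array. Of 29214 probe sets, 15310 had 1 symbol in the probe annotation, 323 several and 13581 none listed, and 15279 of the 15310 were matched to a reference table, which changed 0 symbols. The probe set with the highest mean was kept per symbol, leaving 14506 genes, 527 with several probe sets.

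Genes were fitted with limma 3.58.1 in R 4.3.3 (lmFit, eBayes, two-sided, sex as a term), with Benjamini-Hochberg adjustment over all 14506 genes and a threshold of 0.05. Both doses together were set against control, and each dose in a fit of 3 groups sharing 1 estimate of spread. The fit of both doses together was run on simulated data with independent noise, which does not test the fits of single doses or differences shared by samples. The members, the 15 lists (155 of 178 listed genes measured) and the tests were chosen with earlier results of these data known. Named were the members, all other class II chains, up to 4 genes per other list past the threshold by smallest p, and the 10 genes most like the members in residual variation. Other genes are named for their role, or as the ends of a range, after their values were seen. The labels do not say that samples came from separate animals, so p-values measure the spread between samples, which may be technical. The number of arrays limits the precision. Figures were drawn with matplotlib 3.10.9. Alternatives were other model terms, variance settings, array weights, normalizations, filters, thresholds, subsets of samples, the title number as a block and leaving out each sample.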

Additional observations from a re-analysis of the deposited data

Results flagged for a closer look

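RT1-Ba in replicate 10 at 20 mg/kg, at 5.94, stood further below the other 5 samples of its group than Dixon's criterion allows at the 95% level. Of the 15 groups of member values and their mean tested this way, 1 was flagged, and chance flags about 1 in 20. The sample is male. It was also the lowest of its group in RT1-Da, at 7.35, in Cd74, at 8.96, in RT1-Bb, at 5.60, and in RT1-Db1, at 5.74. Without it, RT1-Ba differed from control at 20 mg/kg by -0.88 in place of -1.12.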

How the results depend on the processing

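The mean difference of the 4 members from control kept its sign under every setting run. It was -1.19 for both doses together, and leaving out each sample gave -1.27 to -1.06. At 20 mg/kg it was -0.78 (leaving out each sample, -0.83 to -0.61), and at 30 mg/kg -1.80 (-1.98 to -1.62). Within numbers 1 to 4 alone, whose treated samples were all at 30 mg/kg, it was -1.72. Counts of the 29 measured class II genes of the first 3 lists, members left out, moved more, and the cause was not tested. For both doses 2 were called, and 0 at an adjusted p under 0.01, 4 with array weights and 0 in female samples alone. There were 7 with the set of numbers as a term and 1 to 3 leaving out each sample. At 20 mg/kg 2 were called, and 0 under 0.01, 4 with array weights, 0 in female samples alone, 0 without the sex term and 0 to 3 leaving out each sample. At 30 mg/kg 7 were called, and 3 under 0.01, 3 in female samples alone, 4 with the set of numbers as a term, 1 within numbers 1 to 4 and 5 to 9 leaving out each sample. Between the doses 2 were called, and 0 under 0.01, 5 with array weights, 0 with the set of numbers as a term, 4 after quantile normalization and 0 to 5 leaving out each sample. Title numbers were not used to pair the samples in the main fit. Deviations of same-numbered samples correlated at -0.18 to 0.08, which cannot show whether the samples were paired. With the number as a replicate block, the calls were 3 for both doses, 0 at 20 mg/kg, 3 at 30 mg/kg and 0 between the doses, and the members' mean was -1.32, -0.41 and -1.82 for both doses, 20 and 30 mg/kg. At 20 mg/kg the block gave -0.37 for RT1-Da, -0.45 for RT1-Ba and -0.64 for Cd74. Members called by sex, or by sex and treatment, numbered 0 in every setting run. Arrays without detection calls limit what low probe sets such as Ciita can show.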
